A study of Homo sapiens with 12 samples.

Results

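The cytosolic ribosomal protein genes are the genes for the proteins of the large (RPL) and small (RPS) subunits of the ribosome in the cytoplasm. They were chosen by symbol: RPL or RPS followed by a number and at most an A, X or L, the stalk genes RPLP0, RPLP1 and RPLP2, and RPSA, each with at least 10 counts in at least 3 of the 12 libraries. Of 26334 genes in the count table, 81 had such a symbol and 77 reached the minimum, 46 for the large and 31 for the small subunit. The other 4, among them RPL21 (1 count over all libraries), RPL10L (1 count) and RPL3L (3 counts), did not reach it. All 77 members were among the 12775 genes that passed the filter of the test.

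The libraries were polyadenylated RNA from shA673-1c, an Ewing sarcoma line made from A673 in which doxycycline switches on a hairpin RNA that targets EWS::FLI1, the fusion transcription factor of this tumour. Every group, the 0 h group included, had been given 1 µg/ml doxycycline for 4 days to deplete EWS::FLI1. The groups differed in the time spent in 5 µM actinomycin D, which blocks transcription: 0 h, 1 h, 2 h and 4 h, with 3 biological replicates each. No cells with EWS::FLI1 intact entered any comparison here, and the results come from this 1 line. The table held 9381855 to 10929000 counts per library. The mesenchymal transcripts VIM and FN1 averaged 6313 and 29736 CPM (counts scaled to a fixed total, here the raw library total). Of the Ewing markers, CCND1 and EWSR1 averaged 515 and 257 CPM. STEAP1, FLI1 and PRKCB averaged 17.0, 13.6 and 8.02 CPM, and NR0B1 and NKX2-2 3.36 and 1.18 CPM. CD99 was listed at 0 in every library. Of 12 markers of blood, epithelium, liver and endothelium, 2 passed the filter, with a highest mean of 17.6 CPM (HBB); CD3E was at 0 in every library, and the 12 summed to 11.1 to 18.2 CPM at 4 h, against 21.5 to 31.8 CPM at 0 h; their part in the results was not tested.

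A ribosome holds a single copy of nearly every one of these proteins, so cells make them in matched amounts. Most of their mRNAs begin with a C followed by a run of pyrimidines, the 5′ terminal oligopyrimidine (TOP) motif, through which mTOR and LARP1 govern their translation and storage. They are abundant and long-lived mRNAs. When transcription is blocked, a library shows only the composition of what remains, and a long-lived mRNA takes up a growing part of it. With no spike-in in the table, every change given here is therefore a change in share among the mRNAs that remain; a fall in absolute amount could lie behind a relative rise.

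The starts of the members are shown first, because the TOP motif is the sequence feature the family is known for. Of the 77 members, 62 matched an entry by symbol in the RefSeq promoter table (GRCh38.p14), which is used here for sequence only. Runs were read on the gene's strand, and their overlap with other motifs was not checked. In 45 of the 62 (72.6%), a C at an annotated start was followed by at least 4 more C or T. The same was true of 5.14% of all 27305 genes in that table. The share was 73.0% for the large and 72.0% for the small subunit. The run was 5 to 19 bases long, with a median of 8. The lines below give 10 bases before and 20 from the start on, on the gene's strand, with a run of at least 5 pyrimidines that opens with C at the start in capitals. They show the 3 stalk genes, the pair RPS27 and RPS27L, RPL36A, which was the single member to fall, and 5 members described further on with and without a run.
RPLP0, chr12:120201092-120201121, minus strand: ggcgcgaggcCCTTCTCTCgccaggcgtcc
RPLP1, chr15:69452808-69452837, plus strand: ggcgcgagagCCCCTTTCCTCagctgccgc
RPLP2, chr11:809957-809986, plus strand: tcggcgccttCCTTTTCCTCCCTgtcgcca
RPS19, chr19:41860245-41860274, plus strand: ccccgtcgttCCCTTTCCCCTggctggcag
RPS6, chr9:19380217-19380246, minus strand: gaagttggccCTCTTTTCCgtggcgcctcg
RPS27, chr1:153990752-153990781, plus strand: cgctttcgctCCTTTCCggcggtgacgacc
RPS27L, chr15:63157458-63157487, minus strand: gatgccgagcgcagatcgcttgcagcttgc
RPL39, chrX:119791611-119791640, minus strand: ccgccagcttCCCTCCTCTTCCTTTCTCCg
RPL36A, chrX:101391001-101391030, plus strand: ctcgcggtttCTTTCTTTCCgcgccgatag
RPS4X, chrX:72277229-72277258, minus strand: ctccagccccaatttctacgcgcaccggaa
RPS15, chr19:1438386-1438415, plus strand: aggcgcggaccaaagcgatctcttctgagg

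RPS4X, RPS15 and RPS27L have no such run at the annotated start in this table. An annotated start can lie some bases from the one used in these cells: when a run was allowed to open within 5 bases of the annotated start, 83.9% of the members and 25.2% of all genes had one. The letters CCGGAAG, which hold the GGAA core read by ETS factors, were searched on both strands from 250 bases before to 50 after the start; they were found in 37.1% of the 62 members and in 12.2% of all genes of the table. Their reverse complement, CTTCCGG, opens with pyrimidines and can share letters with a TOP run.

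The ribosomal protein genes took up a larger part of the library at each later time from 2 h on. Their counts summed to 3.24%, 3.29% and 3.36% of the library in the 3 replicates at 0 h, to 3.13%, 3.45% and 3.30% at 1 h, to 3.38%, 3.55% and 3.55% at 2 h, and to 3.76%, 3.89% and 3.88% at 4 h. Every 4 h library lay above every 0 h library, while the 1 h libraries spanned the range of the 0 h ones. The mean was 3.84% ± 0.073 at 4 h, against 3.30% ± 0.063 at 0 h (SD, n = 3 each). In bulk RNA, fewer cells of a type and less RNA per cell cannot be told apart. Within the family, 10 members held 32.8% of the counts.

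**Figure D1:**
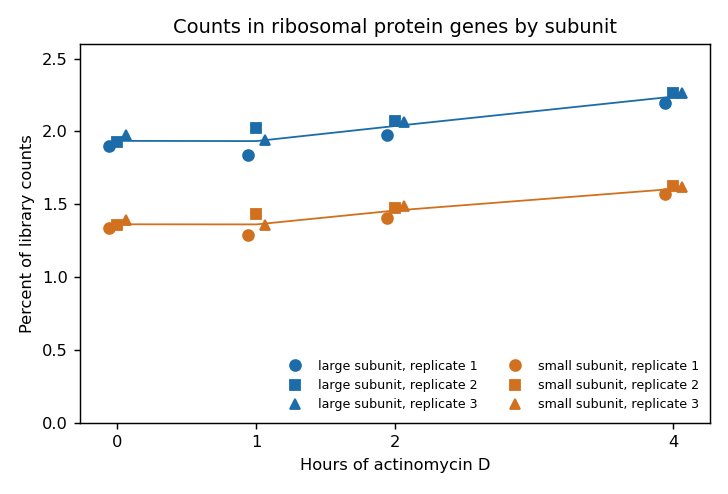
Share of all library counts (percent, y axis) in the large (blue) and small (orange) subunit members against hours of actinomycin D, with a symbol per replicate and lines through the means of 3 libraries. The large subunit held 2.19 to 2.26% at 4 h, against 1.90 to 1.97% at 0 h, and the small subunit 1.57 to 1.63% at 4 h, against 1.34 to 1.39% at 0 h.

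The share of both subunits was higher at 4 h than at 0 h. Summed large subunit counts were 1.391 to 1.398 times the small subunit counts at 4 h, against 1.418 to 1.424 times at 0 h, so the libraries of the 2 times did not overlap in this ratio. The 1 h ratio was 1.411 to 1.426 and the 2 h ratio 1.389 to 1.403. The median log2 change of the members, in edgeR's fit to TMM-scaled counts, was 0.36 for the large and 0.40 for the small subunit at 4 h against 0 h, a difference of -0.039. The middle 50% of members ran from 0.30 to 0.41 in the large and from 0.32 to 0.45 in the small subunit.

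After 1 h no member had passed the test. The call rule here and below is edgeR's quasi-likelihood test with a Benjamini-Hochberg adjusted p under 0.05 over all 12775 genes. In the whole table, 0.172% of genes were called higher and 1.16% lower at 1 h. No member had an unadjusted p under 0.05 at 1 h either, and DESeq2 also called 0. The median log2 change at 1 h was -0.014 for the members, against -0.020 for all genes tested. The members lay close together, with an SD of 0.061 among their log2 changes.

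After 2 h, 13 of 77 members were higher than at 0 h, 6 of the large and 7 of the small subunit, or 16.9%, against 3.39% of all genes tested. RPL36A was called lower, as were 11.7% of all genes. The 13 were RPL5, RPL6, RPL7, RPL12, RPL23A, RPL34, RPS4X, RPS6, RPS12, RPS23, RPS24, RPS27A and RPSA. RPS23, which sits at the decoding centre, averaged 396 ± 5.1 CPM at 2 h (TMM-scaled, as all CPM from here on), against 333 ± 5.5 CPM at 0 h (SD, n = 3 each), a log2 change of 0.25 ± 0.055 (SE, adjusted p = 0.007645). RPL23A, a protein of the peptide exit site, averaged 223 ± 9.9 CPM at 2 h, against 189 ± 5.1 CPM at 0 h. The median log2 change was 0.15 for the members, against 0.014 for all genes. In 54 members all 3 libraries at 2 h lay above all 3 at 0 h, as in 13.3% of all genes, and in 2 members, RPL36A and RPL17, all 3 lay below, as in 18.3% of all genes. The count of calls at 2 h depended on the fit. With the replicate number as a block it was 53 (32 large, 21 small), against 15.9% of all genes called higher by that fit. It was 2 or 3 without any 1 of the 0 h libraries or without replicate 2 or 3 at 2 h. Those fits called 136 to 252 of all 12775 genes higher. With all of replicate 3 left out it was 1 of 77 members, against 278 of all 12775 genes. The share of members called was then no larger than that of all genes. The count was 2 with library totals (1.12% of all genes) and 5 with the libraries of 0 h and 2 h alone (1.57%).

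After 4 h almost the whole family was higher than at 0 h. The test called 72 of 77 members higher, 42 of 46 for the large and 30 of 31 for the small subunit, against 23.3% of all genes tested. RPL36A was the 1 member called lower, against 24.6% of all genes. The median log2 change was 0.37 for the members and 0.054 for all genes, and the middle of the family was narrow, with quartiles at 0.31 and 0.43. All 3 libraries at 4 h lay above all 3 at 0 h in 73 members, as in 27.9% of all genes, and below them in 1, RPL36A, as in 27.5% of all genes. RPL17, RPL39L, RPL41 and RPS27L did not pass the test. With libraries scaled to their totals instead of by TMM, 54 members were called higher, against 10.5% of all genes, and the median was 0.22, with the median of all genes at -0.096.

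**Figure D2:**
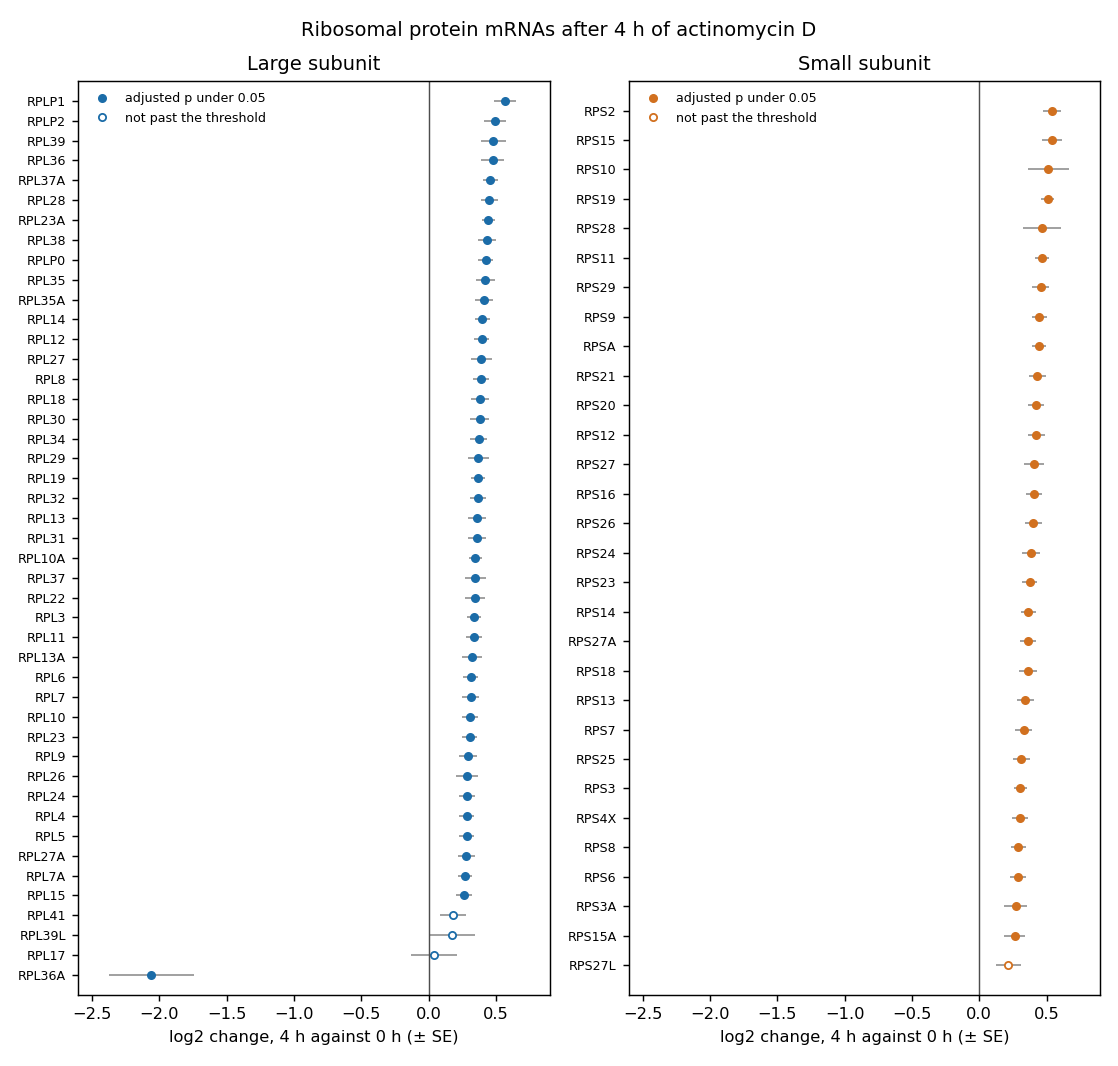
log2 change at 4 h against 0 h (x axis, ± SE from edgeR) of 75 members, of the large (left, blue) and small subunit (right, orange), with filled points for an adjusted p under 0.05. All of these but RPL36A lie between 0.041 and 0.57; RPL36A lies at -2.06.

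The stalk of the large subunit, which recruits translation factors with GTPase activity to the ribosome, is built of RPLP0 and of dimers of RPLP1 and RPLP2. RPLP1 had 999, 967 and 1009 CPM at 4 h, against 627, 681 and 697 CPM at 0 h. This was the largest log2 change of the 77, 0.57 ± 0.083 (SE, adjusted p = 0.000111), and the libraries of the 2 times did not overlap. RPLP2 had 203, 214 and 225 CPM at 4 h, against 145, 154 and 157 CPM at 0 h, a log2 change of 0.49 ± 0.083 (SE, adjusted p = 0.0003562). RPLP0, the stalk base, had 1388, 1322 and 1345 CPM at 4 h, against 1033, 958 and 1032 CPM at 0 h, a log2 change of 0.42 ± 0.055 (SE, adjusted p = 4.173e-05). At 2 h none of the 3 had passed the test, with log2 changes of 0.10, 0.063 and 0.15 for RPLP1, RPLP2 and RPLP0, but with the replicate block RPLP0 was called higher at 2 h (adjusted p = 0.001338). Between 2 h and 4 h all 3 were called higher.

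Among the other large subunit members, RPL39, a protein of the exit tunnel, had 44.2, 50.2 and 47.4 CPM at 4 h, against 30.9, 36.6 and 34.2 CPM at 0 h. The libraries of the 2 times did not overlap, and its log2 change was 0.27 at 2 h (adjusted p = 0.06284) and 0.48 at 4 h (adjusted p = 0.0008429). With the replicate block the 2 h change of RPL39 passed the test (adjusted p = 0.002727), as it did with upper quartile scaling and without replicate 1 at 2 h. RPL8 and RPL4, the large subunit members with the most counts, are core proteins of the subunit. RPL8 had 1546, 1562 and 1599 CPM at 4 h, against 1165, 1172 and 1255 CPM at 0 h, a log2 change of 0.39 ± 0.061 (SE, adjusted p = 0.000188). RPL4 had 1738, 1726 and 1626 CPM at 4 h, against 1396, 1381 and 1404 CPM at 0 h, a smaller log2 change of 0.28 ± 0.055 (SE, adjusted p = 0.001011).

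RPL3, which lines the peptidyl transferase centre, had 1156, 1111 and 1122 CPM at 4 h, against 874, 888 and 921 CPM at 0 h. RPL10, the late-joining protein that completes the large subunit, had 848, 853 and 792 CPM at 4 h, against 690, 674 and 651 CPM at 0 h. The log2 changes of RPL3 and RPL10 were 0.34 and 0.31, and in neither gene did the libraries of the 2 times overlap. RPL5 and RPL11 form a complex with 5S rRNA that can bind MDM2, the ubiquitin ligase of p53, when ribosome assembly is disturbed, and low doses of actinomycin D are a classic way to disturb it. RPL5 had 844, 867 and 807 CPM at 4 h, against 697, 689 and 685 CPM at 0 h, a log2 change of 0.28 ± 0.057 (SE, adjusted p = 0.00131). RPL11 had 863, 958 and 892 CPM at 4 h, against 712, 721 and 715 CPM at 0 h, a log2 change of 0.34 ± 0.063 (SE, adjusted p = 0.0007355). Both stayed within the range of the family, and the 4 h call of RPL5 was lost with library totals.

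In the small subunit, RPS2, a protein of the mRNA entry site, had 1626, 1566 and 1645 CPM at 4 h, against 1040, 1100 and 1182 CPM at 0 h. Its log2 change of 0.54 ± 0.067 (SE, adjusted p = 2.792e-05) was the largest of the subunit. RPS15, near the decoding site, had 245, 237 and 261 CPM at 4 h, against 173, 160 and 178 CPM at 0 h, a log2 change of 0.54 ± 0.075 (SE, adjusted p = 7.568e-05). RPS19, of the head of the subunit and a gene mutated in Diamond-Blackfan anaemia, had 740, 749 and 759 CPM at 4 h, against 540, 520 and 522 CPM at 0 h. It had the smallest adjusted p of the family, 3.451e-06, at a log2 change of 0.51 ± 0.050 (SE), and its replicates were close at both times. For RPS15 and RPS19 the 2 h value was still near 0, with log2 changes of 0.060 and 0.048.

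RPS4X, encoded on the X chromosome, had 1616, 1678 and 1551 CPM at 4 h, against 1299, 1327 and 1306 CPM at 0 h. Its log2 change was 0.21 at 2 h and 0.30 at 4 h, and both passed the test. RPS6, the substrate of S6 kinase, had 627, 691 and 635 CPM at 4 h, against 522, 542 and 536 CPM at 0 h, with log2 changes of 0.21 at 2 h (adjusted p = 0.02744) and 0.29 at 4 h (adjusted p = 0.001317). RPSA, which also serves as a laminin receptor, had 448, 434 and 439 CPM at 4 h, against 332, 311 and 329 CPM at 0 h, with log2 changes of 0.21 at 2 h and 0.44 at 4 h. RPS27A, made as a fusion to ubiquitin, had 516, 554 and 509 CPM at 4 h, against 411, 406 and 413 CPM at 0 h, with log2 changes of 0.22 at 2 h and 0.36 at 4 h. RPS4X, RPS6, RPSA and RPS27A were all called at 2 h; all 4 calls were lost with library totals, without replicate 2 or 3 at 0 h or at 2 h, and with all of replicate 3 left out. The 4 h call of RPS6 was lost with library totals. RPS15A had 412, 421 and 415 CPM at 4 h, against 325, 356 and 358 CPM at 0 h, and RPS3A had 388, 442 and 426 CPM at 4 h, against 319, 359 and 362 CPM at 0 h. Their log2 changes of 0.26 and 0.27 were the smallest among the small subunit members that passed the test. The call of RPS15A was lost with library totals, and that of RPS3A with library totals, without replicate 1 at 0 h and without replicate 2 at 4 h. Both were called higher at 2 h with the replicate block.

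**Figure D3:**
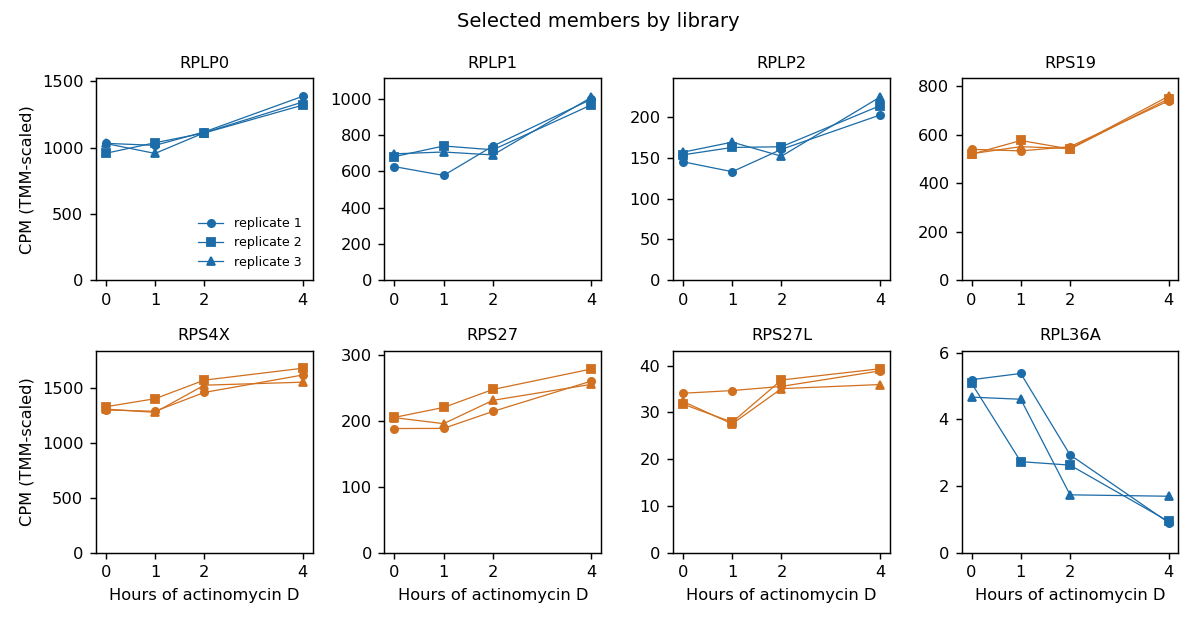
CPM (TMM-scaled, y axis from 0) of 8 members in every library against hours of actinomycin D, with a line per replicate number. RPLP0, RPLP1, RPLP2, RPS19, RPS4X and RPS27 lie higher in every 4 h library than in any 0 h library, RPS27L lies at 35.9 to 39.3 CPM at 4 h, against 31.8 to 34.1 CPM at 0 h, and RPL36A lies between 0.907 and 1.70 CPM at 4 h, against 4.67 to 5.19 CPM at 0 h.

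Members with a near copy could be set beside it, with the limit that reads of near-identical genes may have been split by the counting. RPS27 had 260, 278 and 255 CPM at 4 h, against 188, 205 and 205 CPM at 0 h, a log2 change of 0.41 ± 0.075 (SE, adjusted p = 0.0006584). RPS27L, its p53-inducible paralog, had 38.9, 39.3 and 35.9 CPM at 4 h, against 34.1, 31.8 and 32.3 CPM at 0 h; its log2 change of 0.22 ± 0.092 (SE) did not pass the test (adjusted p = 0.07007), although its libraries did not overlap. RPL39L, a paralog of RPL39 known for expression in testis and tumours, had 7.14, 6.80 and 9.01 CPM at 4 h, against 6.89, 6.32 and 7.14 CPM at 0 h, and the 2 times overlapped (log2 change 0.17 ± 0.17, SE, adjusted p = 0.4298). The difference between a member and its copy was not tested. With the replicate block, RPS27L and RPL41 were called higher at 4 h, and the count of members called higher was 74, against 34.8% of all genes. RPS27L was also called higher at 4 h with GC removal, described further on, and without replicate 1 at 1 h.

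RPL36A, which contacts the E site of the ribosome, was lower at the later times. It had 5.19, 5.09 and 4.67 CPM at 0 h, 5.38, 2.73 and 4.61 CPM at 1 h, 2.94, 2.63 and 1.74 CPM at 2 h and 0.907, 0.941 and 1.70 CPM at 4 h. No library at 2 h or 4 h reached the lowest at 0 h. The log2 change was -1.03 ± 0.28 at 2 h (SE, adjusted p = 0.02402) and -2.06 ± 0.32 at 4 h (SE, adjusted p = 0.0001692). The call at 2 h was lost without replicate 1 or 2 at 0 h or replicate 2 or 3 at 2 h, and with all of replicate 3 left out. The values rest on few reads: 8, 9 and 16 counts at 4 h, against 55, 54 and 53 counts at 0 h. RPL36A had the fewest counts of the 77, 403 over all libraries, and the lowest members after it were RPL17 (784), RPL39L (894) and RPS10 (1520). RPL36A, RPL17 and RPS10 share another trait: a readthrough gene in the table, RPL36A-HNRNPH2, RPL17-C18orf32 and RPS10-NUDT3, spans each of them whole in the RefSeq annotation, and all 3 readthrough genes were listed at 0. How reads that fit both a member and its readthrough gene were counted is not given in the sources used here, so the low counts of these 3 members are uncertain. RPL36AL, the intronless copy of RPL36A, averaged 123 ± 8.2 CPM at 4 h, against 127 ± 3.5 CPM at 0 h (SD, n = 3 each), a log2 change of -0.040 (adjusted p = 0.7433).

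RPL17 had 5.55, 8.37 and 7.64 CPM at 4 h, against 6.23, 7.35 and 7.40 CPM at 0 h, and did not pass the test at any time (log2 change at 4 h 0.041 ± 0.17, SE, adjusted p = 0.8637), although it was called higher between 2 h and 4 h with the replicate block and without replicate 1 at 4 h. RPS10 had 10.99, 17.4 and 16.6 CPM at 4 h, against 9.91, 10.6 and 11.1 CPM at 0 h. It was called higher (log2 change 0.51 ± 0.15, SE, adjusted p = 0.01483), but its first 4 h replicate lay within the 0 h range. This call was lost without replicate 2 or 3 at 4 h, with all of replicate 3 left out, with library totals and with the libraries of 0 h and 4 h alone. RPL41, the shortest member with 75 coding bases, had 67.2, 79.5 and 73.7 CPM at 4 h, against 65.9, 65.8 and 63.0 CPM at 0 h, a log2 change of 0.18 ± 0.098 (SE, adjusted p = 0.15).

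Levels per kb of coding sequence at 0 h set the members on a common scale, with coding lengths from 1 GENCODE 29 transcript per gene. The median member stood at 773 CPM per kb, with 708 for the large and 791 for the small subunit. RPS18 was highest at 2153 ± 63 CPM per kb, and RPL37A at 2141 ± 60 CPM per kb did not differ from it beyond the spread (SD, n = 3 each). RPLP1 at 1954 ± 108, RPL37 at 1766 ± 32 and RPS12 at 1719 ± 27 CPM per kb followed, and the lowest member, RPL17, stood at 12.7 CPM per kb. Although the proteins are used in nearly equal numbers, the quartiles of the family lay at 455 and 1088 CPM per kb. Short coding sequences make this scale sensitive to the length of the untranslated parts, which it leaves out.

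Between 2 h and 4 h, 42 members rose (24 large, 18 small) against 10.2% of all genes, and RPL36A fell, against 14.2% of all genes; this last call (adjusted p = 0.04746) was lost without any 1 of the 0 h libraries, replicate 3 at 1 h, replicate 1 or 2 at 2 h, or replicate 1 or 2 at 4 h. In 62 members all 3 libraries at 4 h lay above all 3 at 2 h, as in 18.1% of all genes, and in RPL36A alone below, as in 19.9%. The median log2 change in this interval was 0.21 for the members and 0.0090 for all genes. RPS15, RPLP1, RPS19 and RPS9 were among the members with the largest log2 changes, 0.46 to 0.48; RPS9, a protein of the small subunit body, averaged 361 ± 3.0 CPM at 4 h, against 263 ± 9.1 CPM at 2 h (SD, n = 3 each; log2 change 0.46, adjusted p = 8.58e-05). With the replicate block 67 members were called higher, against 22.1% of all genes, and with library totals 22, against 4.84%. A test of whether the log2 change from 2 h to 4 h differed from that of 0 h to 2 h called 0 members, against 0.384% of all genes higher and 0.227% lower. At an unadjusted p under 0.05 that test had 15 of 77 members, all with the larger change late. It had 1576 of all 12775 genes, in either direction. DESeq2 called 2 members, against 0.627% of the genes it tested. The fit with the replicate block called 19, 11 large and 8 small, against 7.39% of all genes higher. Among the 19, RPS9 had the largest such difference, 0.47 (adjusted p = 3.904e-05); that of RPL17 was larger, 0.79, and did not pass (adjusted p = 0.05881).

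The members' changes at 2 h against 0 h and at 4 h against 2 h went with base composition in opposite directions. The 77 coding sequences ran from 42.1 to 63.0% GC. Across members, GC content correlated with the log2 change against 0 h at 0.61 (Spearman, 1 h), -0.65 (2 h) and 0.50 (4 h). The correlation was 0.73 at 4 h against 2 h and 0.77 for the change of rate. That is the log2 change from 2 h to 4 h minus that from 0 h to 2 h. The points share the same libraries. Those of 2 h enter the changes at 2 h against 0 h and at 4 h against 2 h with opposite sign. In the 26 members of lowest GC content the median log2 change was 0.19 at 2 h against 0 h and 0.14 at 4 h against 2 h, and in the 26 of highest GC content it was 0.078 and 0.32. Of the members called higher at 2 h, 9 were among the 26 of lowest, 4 among the 25 of middle and 0 among the 26 of highest GC content. Of those called higher between 2 h and 4 h, there were 4, 15 and 23. These counts are from the fit without the replicate block. With the block, 53 members (15.9% of all genes) were called higher at 2 h and 67 (22.1%) between 2 h and 4 h. At 4 h against 0 h the median was 0.33 in the set of lowest, 0.35 in that of middle and 0.44 in that of highest GC content, with 22 of 26, 24 of 25 and 26 of 26 members called higher.

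**Figure D4:**
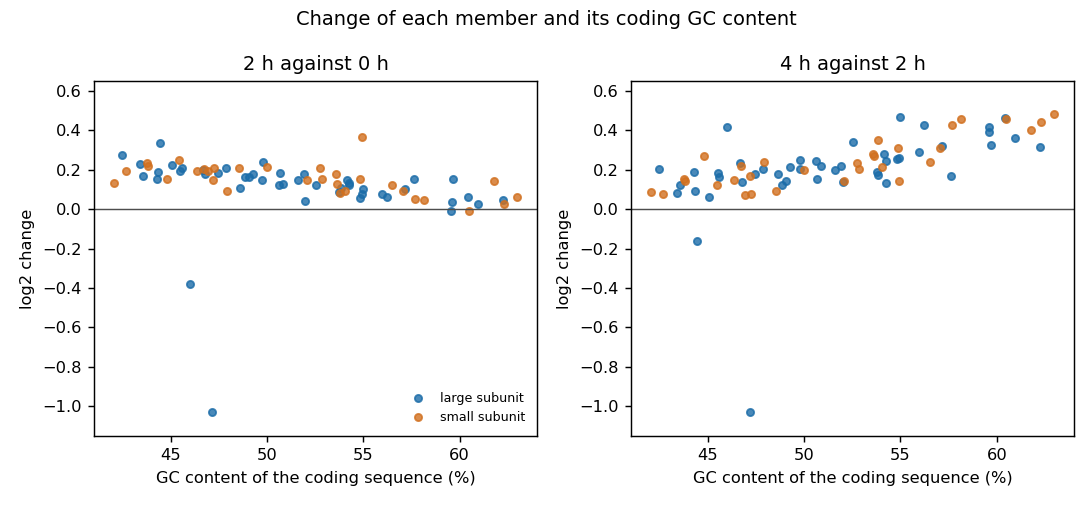
log2 change (y axis) of each member against the GC content of its coding sequence (percent, x axis) at 2 h against 0 h (left) and at 4 h against 2 h (right), for the large (blue) and small subunit (orange). Changes fall with GC content at left and rise with it at right; RPL36A lies near -1.03 in both panels.

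This relation was not limited to the family. Over 6958 genes with at least 20 CPM and a GC value, the Spearman correlation was 0.30 at 1 h, -0.23 at 2 h and 0.26 at 4 h, each against 0 h, and 0.47 at 4 h against 2 h. Over the mitochondrial ribosomal protein genes it was 0.19, -0.55, 0.14 and 0.48 in the same order. For the change of rate it was 0.68 over the 6958 genes and 0.71 over the mitochondrial ribosomal protein genes. The mean coding GC content of a library, weighted by counts, was 51.8 to 51.9% at 0 h, 51.7 to 52.1% at 1 h, 51.5 to 51.7% at 2 h and 52.0 to 52.2% at 4 h. It was lower in every 2 h library and higher in every 4 h library than in any 0 h library. The 1 h libraries overlapped those of 0 h and of 4 h. The part of this GC content in the result was not tested beyond the fit that follows. When a smooth GC trend over all genes was removed from each library, an alternative chosen after seeing the data, 3 members were called higher at 2 h (2.8% of all genes), 56 between 2 h and 4 h (8.54%), and 73 at 4 h against 0 h (23.8%). The correlation over the members was then -0.54 at 2 h against 0 h and -0.23 at 4 h against 0 h. At 4 h against 2 h it was 0.13, and for the change of rate 0.41. With the trend removed and the replicate block, the calls were 47 at 2 h (16.2% of all genes), 73 between 2 h and 4 h (24.1%), 74 at 4 h (36%) and 17 for the change of rate (3.82%).

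Members with and without a run at an annotated start lay close together. At 4 h against 0 h the median log2 change was 0.37 in the 45 members with a run at an annotated start, of which 43 were called higher, and 0.34 in the 17 without, of which 15 were called higher. The 15 members with no entry had a median of 0.38, with 14 called higher. RPS15, with no run at its annotated start, was among the members with the largest change, and RPL36A, with a run of 10 bases, fell. Members without a run at the annotated start can still carry the motif, as 83.9% of the 62 members had a run within 5 bases. The split therefore cannot show whether the motif matters, and the difference was not tested.

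How much the members differed from one another was seen with the libraries scaled to the summed counts of the family, which sets the family's own change near 0. On this scale 2 members were called higher at 4 h against 0 h, beside 1.21% of all genes. They were RPLP1 (log2 change 0.20, adjusted p = 0.04313) and RPS2 (0.17, adjusted p = 0.03327). RPL36A was called lower (-2.43), as were 5837 of all 12775 genes. Between 2 h and 4 h, 6 members were called higher than the family, against 0.955% of all genes, among them RPLP1, RPS9, RPS15 and RPS19. RPS6 (-0.15, adjusted p = 0.0499) and RPL36A were called lower, as were 3857 of all 12775 genes.

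Ribosomal protein genes whose symbols fall outside the rule form a small list. Of 7 tested, 4 rose and 0 fell at 4 h against 0 h, with a median log2 change of 0.23. Beside the counts of this list and those that follow stand 23.3% of all genes higher and 24.6% lower, with a median of 0.054. FAU, which makes RPS30, averaged 284 ± 0.80 CPM at 4 h, against 212 ± 8.5 CPM at 0 h (SD, n = 3 each; log2 change 0.42). GNB2L1, which makes the scaffold RACK1, averaged 1465 ± 46 CPM at 4 h, against 1162 ± 10 CPM at 0 h (0.34). RPL22L1 also rose (0.23), while RPL26L1 (0.22, adjusted p = 0.1647), RPL7L1 (-0.0076, adjusted p = 0.9477) and RPL36AL did not pass the test.

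Of 20 other mRNAs described as TOP mRNAs, 12 rose and 3 fell at 4 h, with a median log2 change of 0.27. The elongation factor subunit EEF1D averaged 406 ± 7.1 CPM at 4 h, against 275 ± 12 CPM at 0 h (log2 change 0.56, adjusted p = 2.578e-05), and EEF1B2 averaged 508 ± 8.2 CPM at 4 h, against 381 ± 9.8 CPM at 0 h (0.42). EEF2 (0.35), the poly(A)-binding protein gene PABPC1 (0.34), TPT1 (0.31) and EEF1A1 (0.21) were also called higher. The 3 that fell were EIF4B (-0.41), EIF3A (-0.30) and TIAM1 (-0.91).

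Of 18 regulators of ribosomal protein mRNAs, 6 rose and 4 fell at 4 h, with a median log2 change of 0.083, against 23.3% of all genes higher and 24.6% lower; counts of this size in so short a list are no result about it. LARP1, which binds TOP mRNAs and stabilises them, averaged 382 ± 25 CPM at 4 h, against 395 ± 50 CPM at 0 h (log2 change -0.046, adjusted p = 0.7419). LARP4B, of the same protein family, fell to 36.3 ± 1.6 CPM at 4 h, against 85.4 ± 7.5 CPM at 0 h (-1.23, adjusted p = 1.194e-07). Of the mTOR complex, MTOR (0.21) and MLST8 (0.47) rose and RPTOR (-0.51) fell.

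Of 42 genes for ribosome assembly, 3 rose and 17 fell at 4 h, with a median log2 change of -0.17. WDR43, of the small subunit processome, averaged 26.1 ± 4.3 CPM at 4 h, against 108 ± 18 CPM at 0 h (log2 change -2.04, adjusted p = 1.299e-06). RRS1, needed for large subunit assembly, averaged 7.37 ± 2.1 CPM at 4 h, against 29.6 ± 4.8 CPM at 0 h (-2.01, adjusted p = 2.213e-05). RIOK2, an atypical kinase of the maturing small subunit, fell to 21.0 ± 1.1 CPM at 4 h, against 42.6 ± 1.7 CPM at 0 h (-1.02). EIF6 (0.34), BOP1 (0.39) and TCOF1 (0.28) rose. Of 77 mitochondrial ribosomal protein genes tested, 16 rose and 9 fell, with a median of 0.067; the count that rose is near the 23.3% of all genes, and the count that fell is below the 24.6%. These lists were described by counts alone, and the difference between them and the members was not tested.

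**Figure D5:**
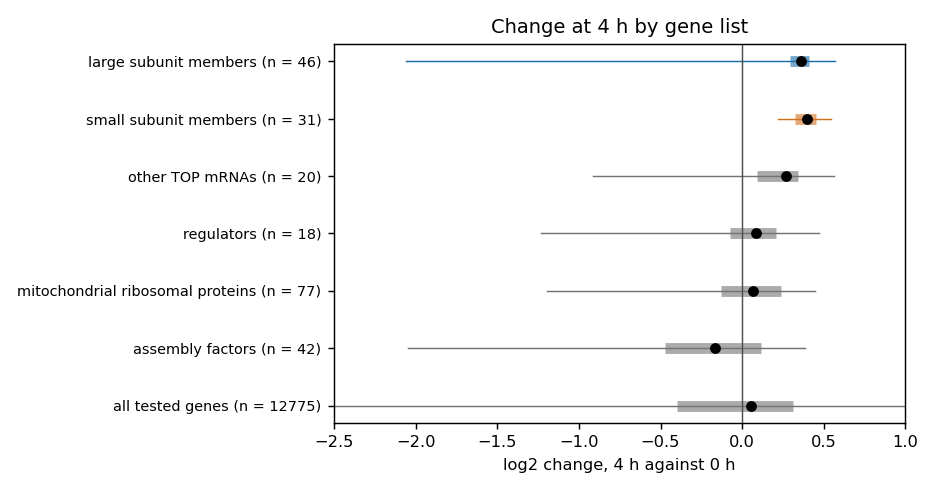
log2 change at 4 h against 0 h (x axis) by gene list: dots are medians, thick bars the middle 50% of genes, thin lines the range, which for all tested genes runs past both ends of the axis. The members of both subunits have medians of 0.36 and 0.40 with narrow bars, the assembly factors a median of -0.17.

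Among 7152 other genes with at least 20 CPM, the 5 whose log2 changes at 1 h, 2 h and 4 h lay nearest to the median profile of the members, by Euclidean distance, were TRNP1 (distance 0.0056), NDUFB1, EIF5A, COX5A and PTGFRN. EIF5A, a translation factor, had log2 changes of 0.15 at 2 h and 0.37 at 4 h. NDUFB1 and COX5A are subunits of respiratory complexes I and IV, with log2 changes of 0.36 and 0.38 at 4 h.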

How the data were processed

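The authors deposited 1 table of raw counts of reads per gene symbol for 12 polyadenylated RNA libraries. Per the labels' protocols, extraction used Nucleospin columns and library preparation the Illumina TruSeq stranded mRNA kit. FastQC, STAR and hg19 are named per the submitters' processing notes; the counting program, annotation and strand setting are not given in the sources used here.

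Counts were tested with edgeR 4.0.16 (limma 3.58.1, R 4.3.3) by the quasi-likelihood test with TMM scaling, after filterByExpr, which kept 12775 genes. All 12 libraries shared 1 fit with time as a factor, with Benjamini-Hochberg adjustment over all 12775 genes. SE was obtained from the log2 change and the quasi-likelihood F. CPM are given as TMM-scaled unless the raw total is named. Intervals cover the spread between these biological replicates. Totals of 9381855 to 10929000 counts limit the precision of low genes.

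No 2 replicates held identical values, and chi-square over degrees of freedom lay between 4.35 and 16.1 for their counts. Replicate numbers come from the labels. Deviations from the time means correlated at 0.26 to 0.65 between libraries of the same number and at -0.50 to 0.16 between others, so the numbers pair the samples, and the fit with the replicate number as a block is given where it changes a result. The second principal component (15.9% of variance) sets replicate 3 apart.

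Alternatives were other scalings, no filter, DESeq2 1.42.0, the replicate block, fewer libraries and removal of a GC trend by loess (span 0.5), the last chosen after seeing the data. The test was tried on simulated data. Named members were, per subunit, the 4 largest and 3 smallest log2 changes at 4 h with at least 5 CPM, the 2 highest and the lowest in mean CPM, any called lower, the stalk genes with RPSA, members with a near copy, and RPS27A, RPS6, RPL5 and RPL11; others named in counts were chosen after their values were seen. GC content and length come from GENCODE 29 coding sequences, found for 91.4% of genes tested. Results of some genes are not reported here. The members and lists were chosen with earlier results of these data known.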

Additional observations from a re-analysis of the deposited data

How the results depend on the processing

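The 72 members called higher at 4 h stayed at 69 to 74 under every alternative except library totals (54) and scaling to the summed member counts (2). That scaling sets the family's own change near 0 by construction, and 36 members lay above 0 and 41 below at 4 h. Among the members picked by the naming rule and called higher at 4 h, those below 0 there at 4 h were RPL4 (-0.088), RPS15A (-0.11), RPS3A (-0.10), RPS4X (-0.071), RPL3 (-0.034), RPL10 (-0.064), RPS27A (-0.012), RPS6 (-0.084), RPL5 (-0.090) and RPL11 (-0.035). Members not called higher at 4 h are left out of this list. Between 2 h and 4 h RPS6 (-0.15) was called lower. At 2 h this scaling called 0 members higher, against 25 of all 12775 genes. Between 2 h and 4 h it called 6 higher and 2 lower, against 122 and 3857 of all genes. Of the 13 called at 2 h, library totals left 2 (1.12% of all genes) and the libraries of the compared times only 5 (1.57%). GC removal left 3 (2.8%). No filter left 8, with 264 genes called higher in all. Upper quartile scaling gave 20, against 567 of all 12775 genes. Library totals gave 22 instead of 42 between 2 h and 4 h, against 4.84% of all genes. The 1 lower call between 2 h and 4 h was 0 with the compared times only and with GC removal. For the change of rate DESeq2 called 2, against 0.627% of the genes it tested.

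With the replicate block, 53 members were called at 2 h, 67 between 2 h and 4 h and 19 for the change of rate. GC removal with the block gave 47, 73 and 17. It called 2 lower at 2 h (RPL36A and RPL17), against 2613 of all 12775 genes, and 1 at 1 h (RPL41), against 964. The block changed no call at 4 h except for RPL41 and RPS27L, which it added.

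Leaving out libraries, the 2 h count of higher calls was 1 to 16 and of lower calls 0 to 1. The 1 higher call came without all of replicate 3, where 278 of all 12775 genes were called higher. The count of higher calls was 2 or 3 without any 1 of the 0 h libraries or without replicate 2 or 3 at 2 h. Those fits called 136 to 252 of all genes higher. The counts were 69 to 73 at 4 h, and between 2 h and 4 h 34 to 47 higher and 0 to 1 lower. The median of the large minus that of the small subunit at 4 h, -0.039, was -0.045 to -0.026. The causes were not tested.

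For all genes at 4 h, library totals gave 1346 higher and 3961 lower, against 2975 and 3148 with TMM. Scaling to the member counts gave 155 and 5837 at 4 h, 25 higher at 2 h, and 122 higher and 3857 lower between 2 h and 4 h. Over the other alternatives, the counts higher and lower ran from 5 to 381 and 44 to 964 at 1 h (22 and 148 as reported), from 136 to 2064 and 1114 to 2613 at 2 h (433 and 1496), from 1346 to 4597 and 2846 to 3961 at 4 h, from 618 to 3084 and 1468 to 2851 between 2 h and 4 h (1302 and 1817), and from 4 to 944 and 1 to 697 for the change of rate (49 and 29); the highest came with the replicate block, alone or with GC removal, except for the 3961. Depth limits RPL36A, RPL17, RPL39L and RPS10 most.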
